A study of Mus musculus with 18 samples.

Results

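Forebrain and hindbrain dissected from the same 6 mice at postnatal day 25 (P25) were compared across all genes in 12 of the 18 libraries of the series, chosen by the region named in the sample labels. The series asked how a knock-in change in a conserved regulatory element of Fmr1 alters expression in the brain, and it also holds 6 midbrain libraries. Each region was taken from 3 wild-type mice and 3 Fmr1CRE mice of the same litter, and the Fmr1CRE mice carry that knock-in change. The allele is present in every cell from fertilisation onwards, since it is inherited in a line made by genome editing in the zygote, and it is not restricted to 1 region or cell type. No mouse received a treatment. Polyadenylated RNA was converted to random-primed libraries and sequenced as single-end reads of 50 bases, and levels are given below as CPM, the reads assigned to a gene per 1000000 reads of its library, scaled for composition.

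The forebrain comprises the cerebral cortex, hippocampus, striatum, thalamus and hypothalamus. The hindbrain comprises the cerebellum, pons and medulla. The embryonic territories from which they arise are marked by different transcription factors, with Fezf2 in the developing cortex and the Hox genes along the caudal hindbrain and spinal cord. Many of these factors stay on in mature neurons, and the neurons of each region use their own sets of channels, receptors and transmitter genes.

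Forebrain libraries held 24177962 to 27954671 assigned reads and hindbrain libraries 22455512 to 27712691. A set of 10 forebrain marker genes had a mean level of 5.92 to 6.46 log2 CPM in the forebrain libraries and 0.89 to 1.64 in the hindbrain libraries, while 12 hindbrain markers were at 4.69 to 5.02 in hindbrain and at -2.89 to -1.08 in forebrain, so every library matched the region on its label. The first principal component carried 62.2% of the variance and separated the regions, with scores of 54.5 to 75.8 in forebrain and -76.5 to -52.4 in hindbrain. The library labelled Fmr1CRE forebrain 1 stood apart on the second component (9.45% of the variance) at -69.3, and Fmr1CRE hindbrain 2 stood apart on both, at -52.4 and 44.8. Both libraries come from Fmr1CRE mice. The counts of called genes over both genotypes, in all and by list, were repeated without those 2 mice. The fits within a genotype, the interaction and the counts by kind of gene, gene length, promoter and midbrain level were not.

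The mouse number on the forebrain libraries of replicate 3 went against the data. Across 11 genes that told the 6 mice apart in midbrain and hindbrain, the forebrain libraries of the other 4 mice correlated best with the hindbrain library of the same mouse (r = 0.784 to 0.936). The library labelled WT forebrain 3 had r = -0.455 with the hindbrain of its own mouse and r = 0.967 with Fmr1CRE hindbrain 3, and the library labelled Fmr1CRE forebrain 3 had r = -0.377 with its own and r = 0.864 with WT hindbrain 3. Over all 18876 genes no forebrain library correlated best with the hindbrain library of its own mouse (r = -0.0873 to 0.0602 with its own, 0.0795 to 0.267 with the best), so the match rests on those 11 genes. The labels were kept as given. The counts of called genes are also given with these 2 forebrain libraries exchanged between mice and without both mice. The counts without overlap and those by midbrain level, kind of gene, gene length and promoter were made only with the labels as given and all 6 mice.

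Expression differed between forebrain and hindbrain in 8811 of 18876 genes tested (46.7%) at an adjusted p under 0.05, in edgeR's quasi-likelihood test with the mouse as a block. Of these, 4498 were higher in forebrain (23.8% of genes tested) and 4313 higher in hindbrain (22.8%). A change of at least 2-fold was estimated for 3238 of the called genes (17.2% of genes tested), 1864 of them higher in forebrain (9.87%) and 1374 higher in hindbrain (7.28%), which left 5573 calls below 2-fold. At 8-fold or more there were 269 genes in the forebrain direction and 202 in the hindbrain direction, and at 32-fold or more 85 and 81. In 5475 genes (29% of genes tested) the 6 forebrain and 6 hindbrain libraries did not overlap in level, and 5422 of those were called. Without the block 9565 genes were called. With the replicate 3 forebrain libraries exchanged 9086 were called, 4630 higher in forebrain, 4456 higher in hindbrain and 3255 at 2-fold or more. Without both replicate 3 mice there were 6288 calls, 3117 and 3171 by direction and 2880 at 2-fold or more. Without the mice Fmr1CRE 1 and 2 there were 8425, with 4457 and 3968 by direction and 3732 at 2-fold or more. Scaling by total counts in place of the composition-corrected totals left 3649 calls higher in forebrain and 5763 higher in hindbrain, so that 38.8% of calls were in the forebrain direction against 51.0% in the main test, and it moved the median log2 fold change of all genes from -0.02 to -0.14. Small differences near 0 therefore take their sign from the scaling, whereas the directions of the genes named below as called did not change under it. Since these are bulk samples, fewer cells of a type and less RNA per cell cannot be told apart in any of the differences described.

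**Figure D1:**
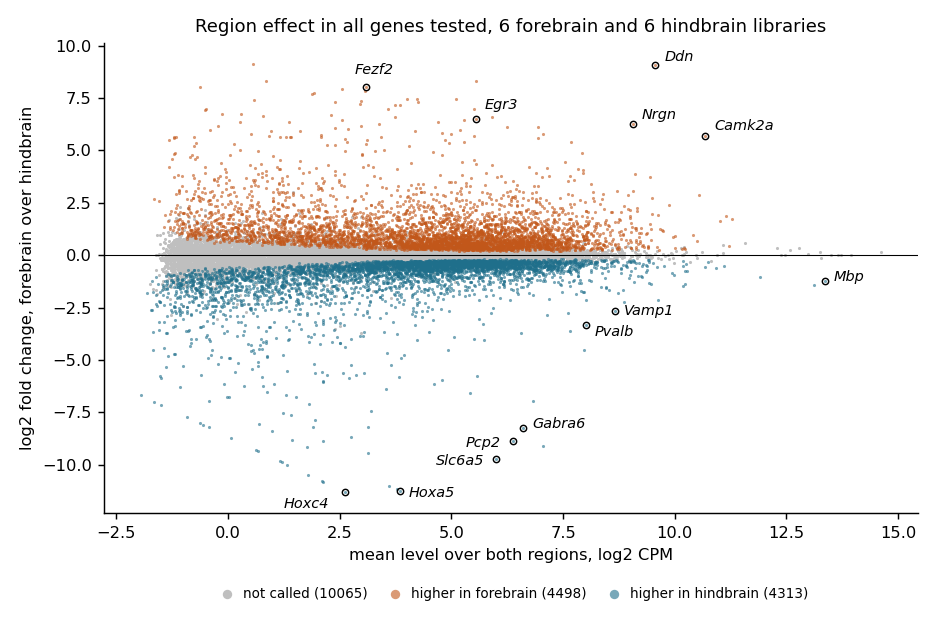
Log2 fold change, forebrain over hindbrain, against the mean level of both regions (log2 CPM) for all genes tested, each point a gene, orange where called higher in forebrain (4498), blue where called higher in hindbrain (4313) and grey where not called (10065). Among genes at 10 CPM or more in the higher region and without overlap, Hoxc4, Hoxa5, Hoxb8 and Hoxb5 have the largest differences in the hindbrain direction. Their fitted fold changes rest on 0 or 1 forebrain reads over 6 libraries. The most abundant forebrain gene with a difference over 32-fold is Camk2a.

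Among genes with a mean of at least 10 CPM in the higher region and no overlap between the groups, the largest difference in favour of forebrain was that of Ddn, which encodes dendrin, a protein of dendrites whose RNA is carried out of the cell body. Ddn measured 1019 to 1794 CPM in forebrain (median 1536) and 0.820 to 14.7 CPM in hindbrain (median 1.96). The hindbrain maximum came from WT hindbrain 3, the library in which Fezf2 was also highest among hindbrain libraries, and the groups were still far from overlapping. Ddn was 540-fold higher in forebrain (log2 fold change 9.08, SE 0.53, adjusted p = 3.13e-06). The 10 largest differences in this direction also included those of Fezf2, Gm49593, Six3, Tbr1, Ankrd63, Dlx1, Dlx6 and 6430584L05Rik, with log2 fold changes of 7.31 to 8.03 (7.35 for Dlx6, and 8.34 without mouse Fmr1CRE 3). Of these, Fezf2, Six3, Tbr1, Dlx1 and Dlx6 encode transcription factors of forebrain development, Gm49593 is an uncharacterised transcript that awaits experimental evidence, and 6430584L05Rik is a long intergenic noncoding RNA.

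By the same rule, the 10 largest differences in favour of hindbrain comprised 6 Hox genes (Hoxc4, Hoxa5, Hoxb8, Hoxb5, Hoxb3 and Hoxb6) and 4 genes of particular neurons or territories. The latter were Slc6a5, the glycine transporter that marks glycinergic neurons, Cnpy1, a gene of the midbrain-hindbrain boundary, Pcp2, a Purkinje cell protein, and Gabra6, the GABA-A receptor subunit of cerebellar granule neurons. Slc6a5 measured 0.0794 to 0.254 CPM in forebrain (median 0.124) and 87.7 to 174 CPM in hindbrain (median 118). No forebrain library approached the lowest hindbrain library, and the difference was 858-fold (log2 fold change -9.75, SE 0.18, adjusted p = 4.83e-08). Cnpy1 had a log2 fold change of -9.09, and of -10.52 without mouse Fmr1CRE 2, whose forebrain library held 2.64 CPM where the other forebrain libraries held 0.127 to 0.238.

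The starts of some of these genes are shown because the promoters of forebrain and hindbrain genes differed in their content of CG dinucleotides (CpG), as described at the end. Each sequence runs from 250 bases before the RefSeq transcription start to 50 after it on the gene's own strand (build GRCm38.p6), written 5′ to 3′ with every CpG in capitals. They were picked from the 20 genes just named after their values were seen, from the 13 that had an entry in the RefSeq promoter table. The first 3 belong to genes higher in forebrain, Fezf2 (chr14:12345816-12346115, minus strand, 20 CpG), Tbr1 (chr2:61804203-61804502, plus strand, 7 CpG) and Dlx1 (chr2:71529195-71529494, plus strand, 27 CpG). The other 4 belong to genes higher in hindbrain, Hoxa5 (chr6:52204538-52204837, minus strand, 29 CpG), Slc6a5 (chr7:49910049-49910348, plus strand, 12 CpG), Pcp2 (chr8:3625498-3625797, minus strand, 1 CpG) and Gabra6 (chr11:42321023-42321322, minus strand, 2 CpG). The promoters of Dlx1 and Hoxa5 are dense in CpG although the genes are on in opposite regions, while that of Tbr1, also a developmental regulator, holds 7. Over the 51 listed transcription factors and Hox genes with a promoter entry the median was 20 CpG, beside 19 over all genes with one. The promoters of the cerebellar genes Pcp2 and Gabra6 hold almost none.
Fezf2: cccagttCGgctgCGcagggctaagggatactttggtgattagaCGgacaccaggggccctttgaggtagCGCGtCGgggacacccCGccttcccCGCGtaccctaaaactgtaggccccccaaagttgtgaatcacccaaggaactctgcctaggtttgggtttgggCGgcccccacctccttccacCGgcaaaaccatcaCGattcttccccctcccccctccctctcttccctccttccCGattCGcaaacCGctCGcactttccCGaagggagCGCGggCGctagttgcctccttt
Tbr1: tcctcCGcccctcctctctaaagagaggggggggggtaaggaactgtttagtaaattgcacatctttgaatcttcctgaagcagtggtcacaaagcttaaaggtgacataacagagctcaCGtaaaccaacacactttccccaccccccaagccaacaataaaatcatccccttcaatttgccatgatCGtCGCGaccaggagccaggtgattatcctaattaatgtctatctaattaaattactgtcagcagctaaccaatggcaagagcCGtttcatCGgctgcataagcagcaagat
Dlx1: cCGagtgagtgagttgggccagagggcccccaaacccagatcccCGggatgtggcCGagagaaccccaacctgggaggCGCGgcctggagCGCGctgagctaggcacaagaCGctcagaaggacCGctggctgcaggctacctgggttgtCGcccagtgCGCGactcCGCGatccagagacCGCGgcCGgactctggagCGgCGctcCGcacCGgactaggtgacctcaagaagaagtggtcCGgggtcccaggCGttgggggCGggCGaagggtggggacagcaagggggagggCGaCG
Hoxa5: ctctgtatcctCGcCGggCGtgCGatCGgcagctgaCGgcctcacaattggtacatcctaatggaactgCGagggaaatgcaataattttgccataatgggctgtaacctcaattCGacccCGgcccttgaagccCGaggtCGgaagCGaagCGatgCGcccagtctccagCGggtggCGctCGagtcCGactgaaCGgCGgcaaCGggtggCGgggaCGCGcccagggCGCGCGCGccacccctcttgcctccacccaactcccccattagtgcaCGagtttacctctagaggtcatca
Slc6a5: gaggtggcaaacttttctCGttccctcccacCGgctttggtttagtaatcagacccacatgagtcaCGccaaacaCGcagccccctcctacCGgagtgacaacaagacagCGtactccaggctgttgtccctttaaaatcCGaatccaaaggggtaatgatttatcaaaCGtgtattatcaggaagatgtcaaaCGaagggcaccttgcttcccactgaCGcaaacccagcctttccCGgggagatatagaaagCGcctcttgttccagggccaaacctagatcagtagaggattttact
Pcp2: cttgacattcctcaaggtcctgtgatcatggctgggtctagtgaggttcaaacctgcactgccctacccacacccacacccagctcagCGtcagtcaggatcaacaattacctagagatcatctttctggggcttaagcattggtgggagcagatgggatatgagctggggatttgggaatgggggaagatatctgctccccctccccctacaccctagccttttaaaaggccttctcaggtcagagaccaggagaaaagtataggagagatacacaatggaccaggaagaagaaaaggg
Gabra6: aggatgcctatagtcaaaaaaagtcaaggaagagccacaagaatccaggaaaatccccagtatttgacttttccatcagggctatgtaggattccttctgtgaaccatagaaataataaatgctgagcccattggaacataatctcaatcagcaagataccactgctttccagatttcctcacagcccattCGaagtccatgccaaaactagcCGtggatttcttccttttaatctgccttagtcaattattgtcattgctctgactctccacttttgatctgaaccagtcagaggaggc

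Transcription factors of forebrain development were all higher in forebrain: of 23 listed, 23 were tested and 23 were called in that direction, 22 of them by at least 2-fold, with a median log2 fold change of 6.14 beside -0.02 over all genes tested. All 23 were also without overlap between the regions, where 29% of all genes were. The list was chosen with earlier results of these data known, so these counts are a description. Members near 0 in hindbrain, such as Fezf2 and Six3, passed the filter on low counts through the forebrain libraries alone. Fezf2, which specifies subcortical projection neurons, measured 13.4 to 18.6 CPM in forebrain (median 17.3) and 0 to 0.278 CPM in hindbrain (median 0.0344). Six3, a factor of the anterior neural plate that also acts in striatal neurons, measured 7.86 to 23.3 CPM (median 17.5) against 0.0332 to 0.144 CPM (median 0.0585). The hindbrain levels of both genes were close to the limit of detection, and the highest hindbrain value of Fezf2 belonged to WT hindbrain 3. Their fold changes were 261 and 229 (log2 8.03 and 7.84, adjusted p = 2.92e-06 and 1.40e-07). Without mouse WT 3 the log2 fold change of Fezf2 was 9.28. The same 23 of 23 were called with the replicate 3 libraries exchanged, without both replicate 3 mice and without the mice of the 2 libraries that stood apart.

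Of 33 listed transcription factors of the hindbrain and cerebellum, 30 were tested, 27 were called higher in hindbrain, all by at least 2-fold, 1 was called higher in forebrain by at least 2-fold and 2 were not called, where 22.8% of all genes were called higher in hindbrain and 23.8% higher in forebrain. The median log2 fold change was -3.86. Members near 0 in forebrain passed the filter on low counts through the hindbrain libraries alone. The hindbrain count therefore follows in part from the filter. Lbx1, a factor of dorsal hindbrain interneurons, had 2 forebrain reads in all and 7.18 to 9.73 CPM in hindbrain (median 8.86), a ratio of 699.2 with a 95% counting interval of 193.2 to 5779. Tlx3, which acts in excitatory neurons of the dorsal hindbrain, measured 0 to 0.124 CPM (median 0.0195) against 2.54 to 4.78 CPM (median 3.42). En2, a cerebellar patterning gene named here after its values were seen, measured 0.352 to 1.90 CPM (median 0.978) against 20.1 to 40.8 CPM (median 27.8). None of these 3 overlapped between regions. Tlx3 had a log2 fold change of -6.54 (adjusted p = 2.16e-05), and of -7.44 without mouse Fmr1CRE 2. The factors Gbx2 (adjusted p = 0.372) and Pax5 (adjusted p = 0.503), which were chosen as boundary genes of the embryo, were not called.

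Hox genes encode the factors that give positional identity along the hindbrain and spinal cord. Of 39 listed, 20 passed the filter on low counts and all 20 were called higher in hindbrain. Since they passed through the hindbrain libraries alone, this count follows in part from the filter. The Hox transcripts summed to 0.241 to 0.714 CPM in forebrain libraries and to 146 to 249 CPM in hindbrain libraries over the 39 genes, and 4 of them had no read in any of the 12 libraries. Hoxa5 measured 25.1 to 36.5 CPM in hindbrain (median 27.7) and had 1 read in all 6 forebrain libraries together, a ratio of 4633 with a 95% counting interval of 831 to 183015. Hoxc4 had no forebrain read and 11.3 to 14.1 CPM in hindbrain (median 12.1), which makes it at least 656.3-fold higher. Hoxb8 also had 1 forebrain read, but its hindbrain levels ran from 7.16 to 37.6 CPM (median 31.3). The spread of Hoxb8 among hindbrain libraries was thus far wider than that of Hoxa5 or Hoxc4, and its lowest value came from WT hindbrain 1. The median log2 fold change of the 20 genes was -9.001 as fitted and -8.62 with the 6 genes that had no forebrain read set to their bound.

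Genes of cortical and hippocampal projection neurons were mostly higher in forebrain, with 21 of 24 called in that direction and 1 in the other (median log2 fold change 1.71). Nrgn, which encodes the calmodulin-binding protein neurogranin of excitatory neurons, measured 991 to 1235 CPM in forebrain (median 1028) and 9.92 to 26.5 CPM in hindbrain (median 12.6). Camk2a, the alpha subunit of calcium/calmodulin-dependent kinase II, measured 1562 to 4897 CPM (median 3253) against 43.6 to 72.2 CPM (median 63.4). Ptk2b, a calcium-activated tyrosine kinase, measured 227 to 282 CPM (median 262) against 3.35 to 8.33 CPM (median 4.23). The regions were far apart for each of these genes, and the lowest Camk2a value in forebrain came from Fmr1CRE forebrain 1. Their fold changes were 76.2, 51.9 and 55.5 (adjusted p = 3.74e-07, 7.26e-07 and 2.37e-07). Etv1, a marker of cortical layer 5 that cerebellar granule neurons also express, was the exception in the hindbrain direction, at 56.5 to 88.8 CPM in forebrain (median 68.3) and 91.5 to 142 CPM in hindbrain (median 111, adjusted p = 0.000797). Prox1, the factor of dentate granule cells, was not called (17.7 to 38.5 CPM in forebrain, 21.9 to 38.4 CPM in hindbrain, adjusted p = 0.759).

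All 20 listed genes of striatal projection neurons were called higher in forebrain, 19 of them by at least 2-fold, with a median log2 fold change of 2.77. Without both replicate 3 mice 19 were called. Drd1, the dopamine D1 receptor of the direct pathway, measured 21.9 to 69.2 CPM in forebrain (median 55.4) and 0.336 to 1.57 CPM in hindbrain (median 0.490). Gpr6, an orphan receptor of the indirect pathway, measured 6.91 to 16.8 CPM (median 12.8) against 0.143 to 0.252 CPM (median 0.179). Their groups were clear of each other, although each forebrain group spread by more than 2-fold and Fmr1CRE forebrain 1 held the lowest Drd1 level. The fold changes were 81.3 and 65.2 (adjusted p = 1.05e-06 and 1.48e-07). The summed level of the list ran from 2136 to 4871 CPM among forebrain libraries and from 637 to 819 CPM among hindbrain libraries, a wider spread in forebrain than in hindbrain.

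Thalamic genes were fewer and less uniform. Of 8 tested, 5 were higher in forebrain, 1 was higher in hindbrain and 2 were not called (median log2 fold change 1.35). Of all genes 23.8% were called higher in forebrain and 22.8% higher in hindbrain. Tcf7l2, a factor of thalamic neurons, measured 10.4 to 37.8 CPM in forebrain (median 23.3) and 3.69 to 7.42 CPM in hindbrain (median 4.15). Its groups did not overlap, and it was 5.01-fold higher in forebrain (adjusted p = 0.000506). Calb2, the calcium-binding protein calretinin, was the 1 gene that went the other way, at 28.9 to 61.1 CPM in forebrain (median 50.7) and 148 to 213 CPM in hindbrain (median 183), a 3.71-fold difference (adjusted p = 3.33e-06). Calretinin is also abundant in cerebellar granule neurons.

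Of 18 genes of cerebellar granule neurons, 14 were higher in hindbrain and 2 higher in forebrain (median log2 fold change -1.91). Gabra6 measured 0 to 4.49 CPM in forebrain (median 0.268) and 123 to 322 CPM in hindbrain (median 177). Cbln3, a secreted synaptic organiser of granule neurons, measured 0.748 to 7.75 CPM (median 1.18) against 137 to 368 CPM (median 217). Fat2, a cadherin of their axons, measured 0.264 to 6.18 CPM (median 0.435) against 50.9 to 111 CPM (median 95.4). The forebrain maximum of all 3 genes came from 1 library, Fmr1CRE forebrain 2, in which the Purkinje cell gene Pcp2 was also at its forebrain maximum, and the regions did not overlap even so. The log2 fold changes were -8.27, -6.96 and -6.60 (adjusted p = 5.48e-05, 2.45e-05 and 0.000120), and -9.77, -7.63 and -7.66 without mouse Fmr1CRE 2. Slc17a7 and Gabrd, the vesicular glutamate transporter VGLUT1 and the delta subunit of GABA-A receptors, were on the list but are shared with forebrain neurons, and both were higher in forebrain (7.19-fold and 1.57-fold, adjusted p = 4.23e-06 and 0.0160), though Gabrd was not called without both replicate 3 mice (adjusted p = 0.122).

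Purkinje cells, the output neurons of the cerebellar cortex, showed the same pattern. Of 20 of their genes, 17 were higher in hindbrain and 1 in forebrain (median log2 fold change -2.12). Pcp2 measured 0 to 1.36 CPM in forebrain (median 0.218) and 102 to 239 CPM in hindbrain (median 172). Ppp1r17, an inhibitor of protein phosphatases found in Purkinje cells, measured 0.390 to 1.33 CPM (median 0.892) against 30.7 to 77.6 CPM (median 54.4). Neither gene overlapped between regions, and the log2 fold changes were -8.88 and -5.97 (adjusted p = 8.13e-06 and 8.59e-07). Without mouse Fmr1CRE 2 that of Pcp2 was -10.04. Foxp2, which Purkinje cells share with neurons of the striatum, thalamus and deep cortex, was 2.83-fold higher in forebrain (20.6 to 29.0 CPM, median 28.2, against 7.83 to 13.3 CPM, median 8.87, adjusted p = 3.25e-05).

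Most tested genes of monoamine neurons and of cholinergic and motor neurons were higher in hindbrain. Among 10 tested genes of monoamine neurons 8 were, and among 9 tested genes of cholinergic and motor neurons 7 were, beside 22.8% of all genes. Slc6a4, the serotonin transporter, measured 0 to 0.132 CPM in forebrain (median 0.0195) and 3.47 to 10.4 CPM in hindbrain (median 6.14, 137-fold, adjusted p = 5.47e-06). Slc6a2, the noradrenaline transporter, measured 0.0780 to 0.357 CPM in forebrain (median 0.122) and 0.763 to 17.0 CPM in hindbrain (median 1.43). Dbh, the enzyme that makes noradrenaline, measured 0.318 to 0.546 CPM in forebrain (median 0.433) and 2.20 to 15.1 CPM in hindbrain (median 3.10). The hindbrain maximum of both noradrenergic genes came from Fmr1CRE hindbrain 2 and stood well above the other 5 hindbrain libraries, and neither group overlapped the forebrain. Slc6a2 had a log2 fold change of -3.97 (adjusted p = 0.000583), and of -3.19 without mouse Fmr1CRE 2. Calca, which encodes the peptide CGRP of motor and parabrachial neurons, measured 0.412 to 1.75 CPM in forebrain (median 0.930) and 9.29 to 19.1 CPM in hindbrain (median 14.8, 14.7-fold, adjusted p = 1.46e-05). Isl1, a motor neuron factor that striatal cholinergic and projection neurons share, was 5.83-fold higher in forebrain (adjusted p = 0.000209). Maob, the monoamine oxidase that glia also make, was 1.22-fold higher there (adjusted p = 0.0237) but was not called without both replicate 3 mice (adjusted p = 0.171), under total counts (adjusted p = 0.159), without mouse WT 1 (adjusted p = 0.0625) or without mouse WT 3 (adjusted p = 0.0578).

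**Figure D2:**
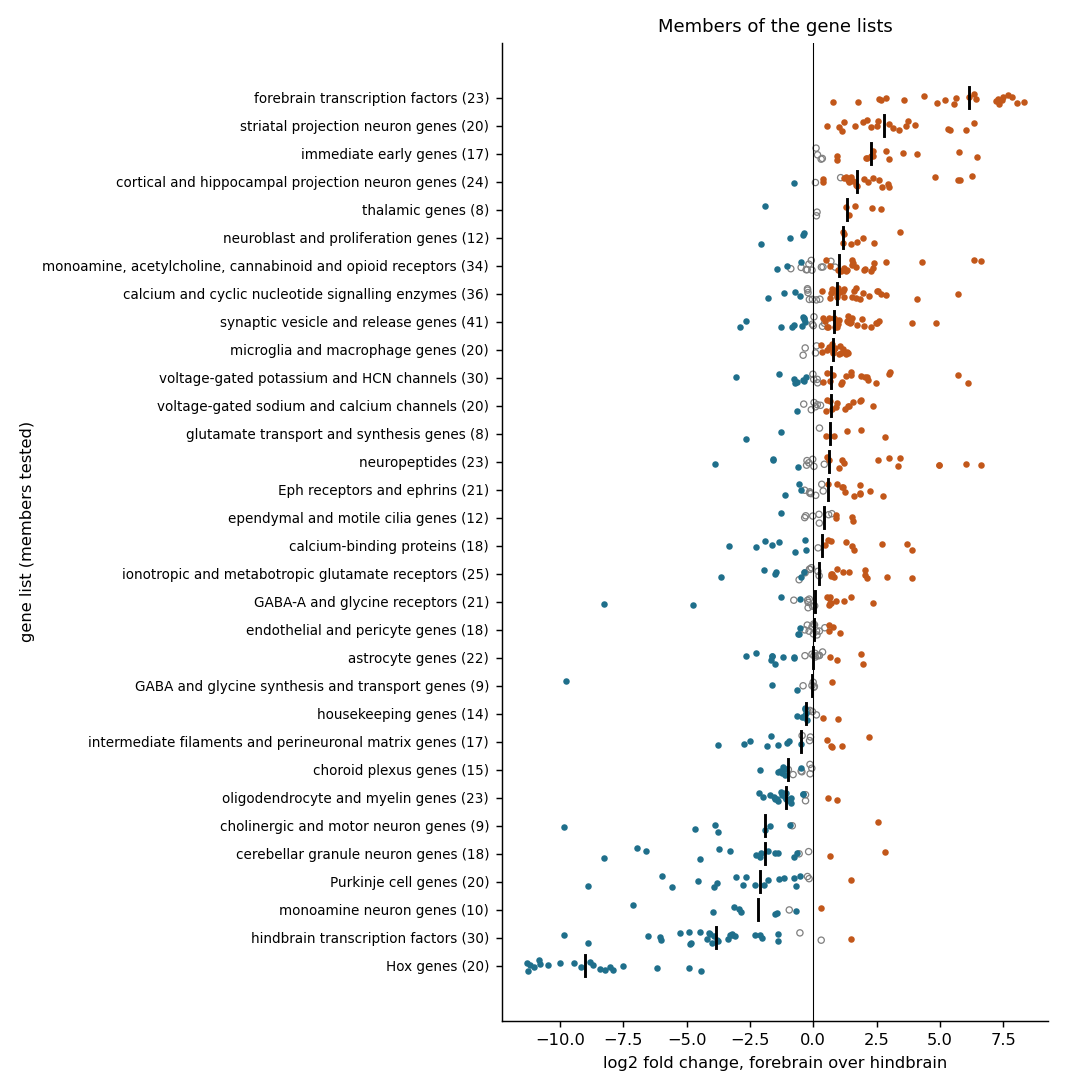
Log2 fold change, forebrain over hindbrain, of every tested member of the gene lists with at least 5 tested members, 1 row per list with the number tested in brackets. Orange points were called higher in forebrain, blue higher in hindbrain and open points not called, and the black bar is the list's median, which runs from 6.14 for forebrain transcription factors to -9.001 for Hox genes.

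Among 8 genes of glutamate transport and synthesis, 5 were higher in forebrain and 2 in hindbrain, beside 23.8% and 22.8% of all genes. The hindbrain count was near the share of all genes. The vesicular transporters divided between the regions. Slc17a7 (VGLUT1) measured 702 to 950 CPM in forebrain (median 894) and 93.2 to 188 CPM in hindbrain (median 116), whereas Slc17a6 (VGLUT2) measured 27.4 to 86.9 CPM (median 73.9) and 129 to 193 CPM (median 148). Neither gene overlapped between regions (adjusted p = 4.23e-06 and 0.00314). Slc1a6, the glutamate transporter EAAT4 of Purkinje cells, was 6.37-fold higher in hindbrain (adjusted p = 4.00e-06), and Slc1a2, the astrocytic transporter GLT-1, was 3.69-fold higher in forebrain (adjusted p = 7.33e-06).

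Of 9 tested genes of GABA and glycine synthesis and transport, 1 was higher in forebrain, 3 were higher in hindbrain and 5 were not called (median log2 fold change -0.05), close to the 46.7% of all genes that were called. The forebrain count was 3 in wild-type mice alone and without the mice Fmr1CRE 1 and 2, and 0 without both replicate 3 mice. Gad1, which encodes the main GABA-synthesising enzyme, measured 140 to 264 CPM in forebrain and 202 to 270 CPM in hindbrain (log2 fold change 0.03, SE 0.15, adjusted p = 0.904), and was named after its values were seen. The glycine side differed: besides Slc6a5, the glial glycine transporter Slc6a9 measured 29.9 to 57.3 CPM in forebrain (median 43.1) and 90.2 to 202 CPM in hindbrain (median 127). Its groups did not overlap and it was 3.10-fold higher in hindbrain (adjusted p = 0.000149).

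Of 25 glutamate receptor genes, 12 were higher in forebrain and 6 in hindbrain (median log2 fold change 0.23), beside 23.8% and 22.8% of all genes, so that the hindbrain count was near the share of all genes. Grin2b, the NMDA receptor subunit GluN2B, measured 338 to 741 CPM in forebrain (median 431) and 12.4 to 51.1 CPM in hindbrain (median 26.8). Grm2, a presynaptic metabotropic receptor, measured 23.9 to 38.4 CPM (median 34.3) against 2.77 to 5.78 CPM (median 4.24), and Grin2a, the subunit GluN2A, 148 to 188 CPM (median 162) against 33.0 to 44.5 CPM (median 36.7). The 3 genes were 15.0-fold, 7.55-fold and 4.38-fold higher in forebrain with no overlap (adjusted p = 3.57e-05, 1.41e-05 and 1.35e-06). In the other direction Grin3b, a subunit of glycine-activated receptors in motor neurons, measured 0.117 to 0.424 CPM in forebrain (median 0.273) and 2.27 to 4.61 CPM in hindbrain (median 3.28, 12.4-fold, adjusted p = 7.59e-06). Grm4, a presynaptic receptor of granule neurons, was 2.85-fold higher in hindbrain (adjusted p = 0.000655). The count of 6 in the hindbrain direction was 8 without both replicate 3 mice and 4 without the 2 Fmr1CRE mice whose libraries stood apart.

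Receptors for GABA and glycine comprised 10 genes higher in forebrain, 4 higher in hindbrain and 7 not called of 21 tested (median log2 fold change 0.06), with 7 higher in hindbrain under total counts. The count of 4 did not exceed the 22.8% of all genes called higher in hindbrain, where 23.8% were called higher in forebrain. Gabra4, an extrasynaptic subunit of hippocampal and striatal neurons, measured 124 to 191 CPM in forebrain (median 135) and 21.2 to 35.7 CPM in hindbrain (median 29.7). Glra1, the adult glycine receptor subunit of the brainstem, measured 0.494 to 1.82 CPM (median 1.12) and 22.7 to 38.9 CPM (median 28.3). Both were free of overlap, at 5.10-fold higher in forebrain and 26.8-fold higher in hindbrain (adjusted p = 5.16e-06 and 7.43e-06). Among receptors for monoamines, acetylcholine, cannabinoids and opioids 20 of 34 were higher in forebrain and 3 in hindbrain, or 5 under total counts (median log2 fold change 1.02). Chrm1, the M1 muscarinic receptor, measured 91.1 to 130 CPM in forebrain (median 124) and 0.635 to 2.66 CPM in hindbrain (median 0.843), and Chrm4, the M4 receptor, 11.7 to 22.3 CPM (median 16.9) and 0.535 to 1.14 CPM (median 0.841). Chrm2, the M2 receptor, was the reverse, at 11.99 to 17.9 CPM (median 14.9) and 24.4 to 39.7 CPM (median 29.2). The muscarinic genes M1 and M4 were thus 97.6-fold and 19.7-fold higher in forebrain while M2 was 2.07-fold higher in hindbrain (adjusted p = 7.06e-07, 9.01e-07 and 0.000342).

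Voltage-gated channels leaned to forebrain. Of 20 sodium and calcium channel genes 13 were higher in forebrain and 1, Scn1a, in hindbrain (median log2 fold change 0.69), and of 30 potassium and HCN channel genes 18 were higher in forebrain and 8 in hindbrain (median 0.72), the latter 5 without the mice Fmr1CRE 1 and 2. The count of 8 was near the 22.8% of all genes called higher in hindbrain, where 23.8% were called higher in forebrain. Scn1a, a sodium channel of fast-spiking neurons, measured 124 to 149 CPM in forebrain (median 145) and 192 to 274 CPM in hindbrain (median 210, 1.57-fold, adjusted p = 0.00153). Cacna1i, a T-type calcium channel, measured 73.6 to 161 CPM in forebrain (median 124) and 13.96 to 47.7 CPM in hindbrain (median 21.9, 5.12-fold, adjusted p = 0.000263). Neither channel overlapped between regions. Kcnv1, a modifier subunit of forebrain neurons, measured 80.4 to 102 CPM in forebrain (median 85.0) and 0.970 to 5.11 CPM in hindbrain (median 1.36), and Kcnh3, a channel of the ether-a-go-go family, 192 to 307 CPM (median 232) and 0.288 to 10.2 CPM (median 4.62). Kcng4, a modifier subunit found in Purkinje cells and motor neurons, measured 9.72 to 12 CPM in forebrain (median 10.2) and 76.6 to 100 CPM in hindbrain (median 87.2). Kcnh3 was the least even of these, with the widest hindbrain range for its level, and still the groups were apart. The fold changes were 52.1 and 69.6 in the forebrain direction and 8.29 in the hindbrain direction (adjusted p = 3.83e-06, 0.000115 and 1.40e-07). The log2 fold change of Kcnh3 was 6.12, and 5.23 without the mice Fmr1CRE 1 and 2.

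Of 41 synaptic vesicle and release genes 26 were higher in forebrain and 10 in hindbrain (median log2 fold change 0.82), beside 23.8% and 22.8% of all genes. The hindbrain count was near the share of all genes. Stx1a, the syntaxin of the fusion complex, measured 209 to 244 CPM in forebrain (median 220) and 11.97 to 19.5 CPM in hindbrain (median 14.3). Rims1, an active zone scaffold, measured 325 to 464 CPM (median 398) and 52.9 to 77.0 CPM (median 66.9). Syt2, the fast calcium sensor of hindbrain synapses, measured 27.3 to 44.8 CPM in forebrain (median 32.9) and 214 to 293 CPM in hindbrain (median 245). The groups were apart for all 3 genes, which were 14.9-fold and 6.10-fold higher in forebrain and 7.32-fold higher in hindbrain (adjusted p = 2.13e-07, 3.52e-07 and 5.41e-07). Snap25, the third partner of the fusion complex and named after its values were seen, was 1.25-fold higher in hindbrain, at 1359 to 1628 CPM against 1807 to 2046 CPM (adjusted p = 0.0102).

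Related genes with the same kind of product were set side by side in 23 pairs, which were put together with earlier results of these data known, so their directions are a description. In 17 pairs the first gene was higher in forebrain and the second in hindbrain, in 3 pairs both were higher in forebrain, in 2 pairs both were higher in hindbrain, and in 1 pair the first was higher in forebrain and the second not called. Syt1 measured 742 to 1106 CPM in forebrain (median 982) and 173 to 220 CPM in hindbrain (median 192), the reverse of Syt2. Vamp2 measured 572 to 882 CPM (median 768) and 229 to 364 CPM (median 290), whereas Vamp1 measured 92.5 to 136 CPM (median 110) and 567 to 829 CPM (median 677). Homer1, a scaffold of metabotropic receptors, measured 145 to 227 CPM (median 172) and 18.7 to 36.0 CPM (median 30.2), whereas Homer3, the scaffold of Purkinje cells, measured 12.9 to 16.8 CPM (median 14.7) and 68.9 to 140 CPM (median 98.5). No overlap was found in any of these 5 genes. The log2 fold changes were 2.27 for Syt1, 1.33 for Vamp2, -2.66 for Vamp1, 2.63 for Homer1 and -2.76 for Homer3 (adjusted p at most 8.42e-05).

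Other divided pairs included Plcb1 and Plcb4 (log2 fold changes 1.53 and -1.14), Cbln2 and Cbln1 (1.05 and -3.70), Glra2 and Glra1 (0.64 and -4.75), Kcnc2 and Kcnc1 (1.496 and -0.73), Pde1b and Pde1c (1.96 and -1.79), Atp2a2 and Atp2a3 (0.65 and -2.57) and Lhx2 and Lhx1 (6.43 and -3.92). Plcb1 and Plcb4 encode forms of phospholipase C beta, which acts below metabotropic glutamate receptors, and Homer scaffolds bind those receptors. Grm5, the metabotropic receptor mGluR5, had a log2 fold change of 2.03. The pairs that were not divided included Foxp1 and Foxp2, Ryr2 and Ryr1, and Atp2b1 and Atp2b2, all higher in forebrain, and Gria1 and Gria4, both higher in hindbrain. Gria1 was close to the threshold (log2 fold change -0.36, SE 0.13, adjusted p = 0.0474) and was not called when Fmr1CRE 1, Fmr1CRE 2, WT 1, WT 2 or WT 3 was left out (log2 fold change -0.39 to -0.22, adjusted p = 0.0527 to 0.109). Ryr1 was not called without both replicate 3 mice (adjusted p = 0.0819). In a further pair Grin2b was called and Grin2c, the NMDA receptor subunit of granule neurons and astrocytes, was not (log2 fold change -0.56, SE 0.22, adjusted p = 0.0627). Grin2c was called higher in hindbrain without Fmr1CRE 2 (adjusted p = 0.0359), WT 3 (0.0226) or both replicate 3 mice (0.0473). The same held without the block (0.0193), in DESeq2 (0.0189), under total counts (0.0273), over all 18 libraries (0.0317) and without the filter on low counts (0.0492), but not in the other alternatives.

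**Figure D3:**
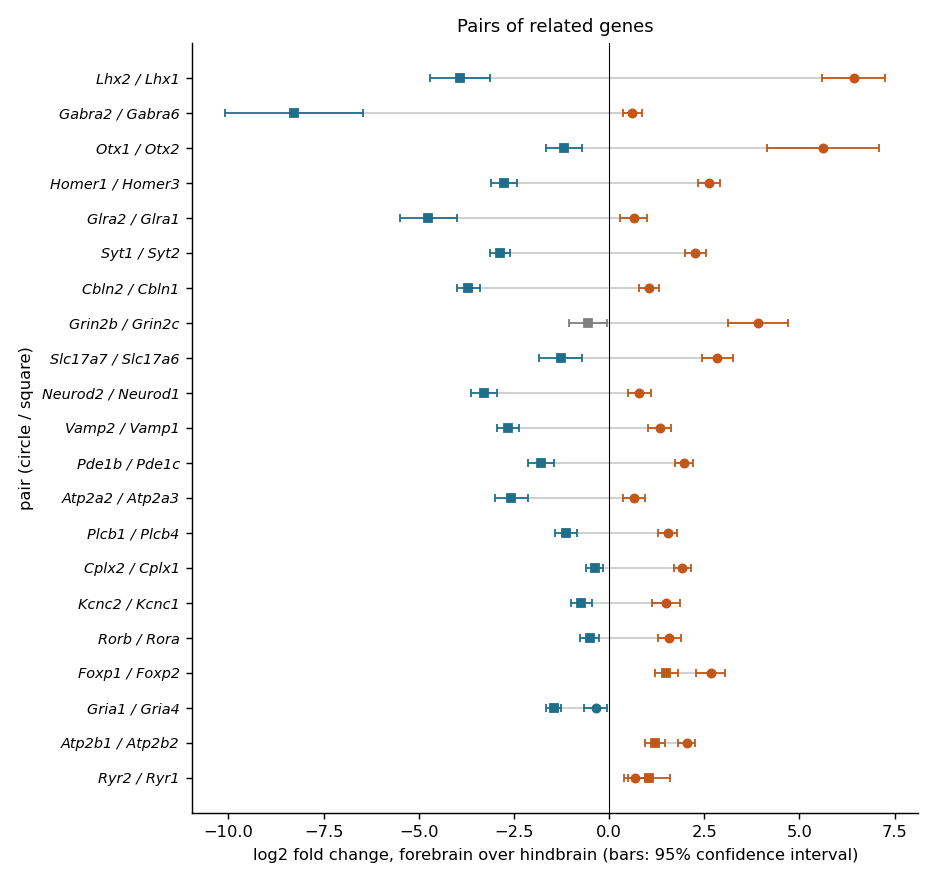
Log2 fold change, forebrain over hindbrain, with its 95% confidence interval for the genes of 21 of the pairs, circles for the first gene and squares for the second, orange where called higher in forebrain, blue where called higher in hindbrain and grey where not called. The line between the symbols crosses 0 in 17 of them, and the widest gap is that of Lhx2 and Lhx1.

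Calcium-binding proteins were evenly divided, with 9 of 18 higher in forebrain and 8 in hindbrain (median log2 fold change 0.33), beside 23.8% and 22.8% of all genes. Hpcal4, a neuronal calcium sensor, measured 693 to 1227 CPM in forebrain (median 1076) and 55.1 to 78.5 CPM in hindbrain (median 72.9). Pvalb, the parvalbumin of Purkinje cells and fast-spiking interneurons, measured 41.1 to 51.7 CPM (median 45.4) and 312 to 639 CPM (median 493). S100b, a protein of astrocytes and oligodendrocytes, measured 147 to 181 CPM (median 158) and 682 to 921 CPM (median 735). Each was without overlap, at 14.8-fold higher in forebrain for Hpcal4 and 10.1-fold and 4.78-fold higher in hindbrain for Pvalb and S100b (adjusted p = 1.78e-07, 9.28e-07 and 2.80e-07). Of 36 enzymes of calcium and cyclic nucleotide signalling 25 were higher in forebrain and 4 in hindbrain (median 0.95), led by Camk2a and by Pde2a, a phosphodiesterase that measured 356 to 511 CPM in forebrain (median 403) and 15.2 to 38.4 CPM in hindbrain (median 22.7, 17.1-fold, adjusted p = 2.80e-07).

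Of 29 neuropeptide genes 23 were tested, with 13 higher in forebrain and 4 in hindbrain (median log2 fold change 0.63), beside 23.8% and 22.8% of all genes. The hindbrain count did not exceed the share of all genes. Cort, the cortistatin of cortical interneurons, measured 2.90 to 4.17 CPM in forebrain (median 3.29) and 0 to 0.107 CPM in hindbrain (median 0.0198, 98.9-fold, adjusted p = 1.24e-05). Oxt, the oxytocin of the hypothalamus, measured 1.39 to 19.3 CPM (median 10.9) and 0 to 0.360 CPM (median 0.0968, 66.2-fold, adjusted p = 0.000126). Pmch, the melanin-concentrating hormone of the lateral hypothalamus, measured 0.159 to 46.9 CPM (median 18.6) and 0.169 to 0.555 CPM (median 0.354, 31.3-fold, adjusted p = 0.00429). The hypothalamic peptides varied most among the forebrain libraries, and Pmch overlapped because Fmr1CRE forebrain 1 and Fmr1CRE forebrain 2 were as low as hindbrain. Its log2 fold change was 4.97, 5.77 without mouse Fmr1CRE 1 and 4.19 without mouse WT 2, and it was not called without both replicate 3 mice (adjusted p = 0.0655). That of Oxt was 6.05, and 6.88 without mouse Fmr1CRE 2, and that of Cort 6.63, and 7.35 without mouse Fmr1CRE 1. In the hindbrain direction Trh and Gal, peptides that brainstem neurons make beside hypothalamic ones, were 2.98-fold and 2.97-fold higher (adjusted p = 0.00485 and 0.00124). Of 21 Eph receptors and ephrins, the contact signals that guide axons, 11 were higher in forebrain and 3 in hindbrain (median 0.59). Epha4 measured 113 to 179 CPM in forebrain (median 139) and 12.4 to 36.4 CPM in hindbrain (median 21.2), with no overlap (6.74-fold, adjusted p = 9.72e-06).

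Of 17 genes of intermediate filaments and perineuronal matrix, 9 were higher in hindbrain and 5 in forebrain, 3 in forebrain without both replicate 3 mice (median log2 fold change -0.47). Of all genes 22.8% were called higher in hindbrain and 23.8% higher in forebrain. The forebrain count was near the share of all genes. Nefh, the heavy neurofilament of large myelinated axons, measured 40.4 to 61.4 CPM in forebrain (median 48.2) and 279 to 443 CPM in hindbrain (median 326). Hapln2, a link protein of the nodes of Ranvier, measured 15.4 to 26.3 CPM (median 17.1) and 86.0 to 126 CPM (median 98.9). The groups did not overlap, and the genes were 6.69-fold and 5.67-fold higher in hindbrain (adjusted p = 2.34e-06 and 5.89e-06). Ncan, the proteoglycan neurocan, was 4.54-fold higher in forebrain (adjusted p = 1.29e-05).

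Genes of myelin and oligodendrocytes were higher in hindbrain in 19 of 23 cases (median log2 fold change -1.09), and the summed level of the list was 14910 to 19000 CPM in forebrain and 33540 to 46800 CPM in hindbrain. Mbp, the myelin basic protein, measured 5575 to 7319 CPM in forebrain (median 5958) and 12400 to 18280 CPM in hindbrain (median 14240). Gjb1, a gap junction protein of oligodendrocytes, measured 14.3 to 23.1 CPM (median 18.4) and 73.6 to 87.0 CPM (median 78.7). Neither overlapped between regions, with fold changes of 2.38 and 4.36 in the hindbrain direction (adjusted p = 2.27e-05 and 3.10e-06). The 2 genes that went the other way, Pdgfra and Cspg4, are those of oligodendrocyte precursor cells. Pdgfra measured 45.4 to 77.7 CPM in forebrain (median 68.9) and 30.8 to 63.0 CPM in hindbrain (median 40.6), and Cspg4, the proteoglycan NG2, 14.3 to 22.9 CPM (median 19.2) and 6.60 to 15.1 CPM (median 9.82). Both overlapped, both were higher in forebrain in 6 of 6 mice (adjusted p = 0.010 and 0.00341), and Cspg4 but not Pdgfra (adjusted p = 0.0615) was called without both replicate 3 mice. Olig2 and Myrf, factors of the lineage, were not called (adjusted p = 0.174 and 0.186), and Olig2 was called higher in hindbrain without mouse Fmr1CRE 3 (adjusted p = 0.0411).

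Astrocyte genes split, with 4 of 22 higher in forebrain, 9 higher in hindbrain and 9 not called (median log2 fold change -0.01). Of all genes 23.8% were called higher in forebrain and 22.8% higher in hindbrain, so the forebrain count did not exceed the share of all genes. Gfap, the filament of fibrous and reactive astrocytes, measured 175 to 255 CPM in forebrain (median 232) and 482 to 840 CPM in hindbrain (median 723). Gdf10, a secreted factor of cerebellar Bergmann glia, measured 6.11 to 10.4 CPM (median 8.69) and 37.3 to 67.3 CPM (median 56.9). Mfge8, a secreted glycoprotein of astrocytes, measured 102 to 136 CPM (median 118) and 25.4 to 35.7 CPM (median 30.0). The groups were apart in each, at 3.15-fold and 6.28-fold higher in hindbrain for Gfap and Gdf10 and 3.92-fold higher in forebrain for Mfge8 (adjusted p = 6.16e-06, 4.59e-06 and 1.80e-06). The pan-astrocyte genes Aldh1l1 (adjusted p = 0.0890) and Slc1a3 (adjusted p = 0.187) were not called, and both were called higher in forebrain without mouse Fmr1CRE 1 (adjusted p = 0.0228 and 0.0418). Without the 2 Fmr1CRE mice whose libraries stood apart, the count in the forebrain direction rose to 8 of 22.

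Microglial genes were higher in forebrain in 16 of 20 cases, and none was higher in hindbrain (median log2 fold change 0.77). Their summed level was 578 to 761 CPM in forebrain and 325 to 401 CPM in hindbrain. Cx3cr1, the fractalkine receptor, measured 47.4 to 74.0 CPM in forebrain (median 64.3) and 21.0 to 27.2 CPM in hindbrain (median 22.8), and Csf1r, the receptor microglia need for survival, 73.4 to 136 CPM (median 97.4) and 32.2 to 48.8 CPM (median 39.2). No forebrain library fell within the hindbrain range (2.62-fold and 2.50-fold, adjusted p = 8.86e-06 and 4.65e-05). The 4 genes that were not called were Mrc1, Cd163, Lyve1 and Pf4, all of macrophages at the borders of the brain, with adjusted p of 0.300 to 0.754. The count was 14 of 20 without both replicate 3 mice, under total counts and within each genotype.

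Other non-neural tissue also differed between the dissections. Endothelial and pericyte genes were mostly not called, with 4 of 18 higher in forebrain and 3 in hindbrain beside 23.8% and 22.8% of all genes, and the balance turned under total counts (2 and 6) and without both replicate 3 mice (1 and 3). Choroid plexus genes were higher in hindbrain in 8 of 15 cases and never in forebrain (median log2 fold change -0.98), and Ttr, the transthyretin that choroid plexus secretes, measured 346 to 846 CPM in forebrain (median 646) and 864 to 3167 CPM in hindbrain (median 1344, 2.63-fold, adjusted p = 0.00220). All 5 genes of red blood cells were higher in hindbrain (median -1.02), with summed levels of 503 to 1555 CPM in forebrain and 1057 to 2723 CPM in hindbrain that overlapped. Hbb-bs, a beta globin whose reads could be split with its close copy Hbb-bt, was 2.03-fold higher in hindbrain in 6 of 6 mice (adjusted p = 0.00414). Of 7 meningeal genes 3 were higher in hindbrain, 6 under total counts or without both replicate 3 mice and 5 in DESeq2, among them Dcn, the decorin of fibroblasts (3.37-fold, adjusted p = 4.46e-05). Genes of the pituitary (6 listed) did not reach the level needed for testing. The part of these tissues in other differences was not tested.

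Genes of neuroblasts and proliferation were divided 8 to 4 in favour of forebrain, with all 12 called (median log2 fold change 1.19). Of all genes 23.8% were called higher in forebrain and 22.8% higher in hindbrain. Igfbpl1, a gene of immature neurons, measured 5.18 to 6.32 CPM in forebrain (median 5.58) and 0.317 to 1.33 CPM in hindbrain (median 0.419), and Sox11, a factor of young neurons, 21.3 to 30.9 CPM (median 27.0) and 5.95 to 7.195 CPM (median 6.78). Both were without overlap (10.8-fold and 3.89-fold, adjusted p = 3.48e-05 and 3.65e-06). Eomes, a factor of cortical intermediate progenitors and, in the cerebellum, of unipolar brush cells, was 4.15-fold higher in hindbrain (adjusted p = 0.000884). Ependymal and motile cilia genes showed no common direction (4 of 12 higher in forebrain and 1 in hindbrain, or 1 and 2 without both replicate 3 mice).

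Immediate early genes are switched on within minutes by neuronal activity. Of 17, 13 were higher in forebrain and none in hindbrain (median log2 fold change 2.28), and 14 were with the replicate 3 forebrain libraries exchanged or without both those mice. Egr3 measured 51.4 to 120 CPM in forebrain (median 99.3) and 0.564 to 1.497 CPM in hindbrain (median 1.06). Egr2 measured 0.764 to 13.1 CPM (median 10.5) and 0 to 0.265 CPM (median 0.117), and Egr4 12.8 to 37.8 CPM (median 29.2) and 0.357 to 2.50 CPM (median 1.74). These zinc finger factors did not overlap between regions and were 89.0-fold, 53.9-fold and 17.2-fold higher in forebrain (adjusted p = 2.06e-07, 0.000528 and 4.42e-05). Egr2 had a log2 fold change of 5.75, and of 6.76 without mouse WT 2.

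The level of these genes also differed among mice within a region. Arc, a protein of active synapses named after its values were seen, stood at 26.8 CPM in WT forebrain 2 and 28.4 CPM in the library labelled Fmr1CRE forebrain 3, and at 196.8 to 293 CPM in the other 4 forebrain libraries. Its hindbrain levels of 13.4 to 24.2 CPM lay below both groups of forebrain libraries (7.95-fold, adjusted p = 0.00219). Fos, the most used marker of this kind and also named after its values were seen, was 3.90 CPM in WT forebrain 2 and 3.86 CPM in the library labelled Fmr1CRE forebrain 3, against 24.96 to 32.4 CPM in the other forebrain libraries. In hindbrain Fos was 3.52 CPM in WT hindbrain 2 and 4.72 CPM in WT hindbrain 3, against 18.9 to 22.7 CPM in the other 4. The low hindbrain libraries thus carry the mouse numbers of WT 2 and WT 3, and the low forebrain libraries those of WT 2 and Fmr1CRE 3, the 2 replicate 3 forebrain libraries being those whose mouse number went against the data. Fos was not called between regions (log2 fold change 0.36, SE 0.50, adjusted p = 0.585). With the replicate 3 forebrain libraries exchanged it was at 0.32 (SE 0.13, adjusted p = 0.0679), and without both replicate 3 mice it was called at 0.44 (SE 0.13, adjusted p = 0.0410).

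Housekeeping genes were not level between the regions. Of 14 in common use as references, 2 were higher in forebrain, 8 higher in hindbrain and 4 not called, with no difference reaching 2-fold (median log2 fold change -0.27). Ywhaz measured 656 to 1035 CPM in forebrain (median 886) and 348 to 590 CPM in hindbrain (median 423), and Actb 670 to 838 CPM (median 694) and 496 to 647 CPM (median 533). Tfrc measured 91.4 to 150 CPM (median 115) and 171 to 201 CPM (median 181). These genes did not overlap between regions, with log2 fold changes of 0.99, 0.37 and -0.65 (adjusted p = 0.00159, 0.00336 and 0.000321). Sdha, B2m, Pgk1, Ppia, Hprt and Tbp were called higher in hindbrain at log2 fold changes of -0.45 to -0.26, and Gapdh, Gusb and Rplp0 were not called. The calls of Pgk1, Hprt and Tbp were lost when at least 1 mouse was left out, all 3 without Fmr1CRE 2 (adjusted p = 0.0550 to 0.0635) or WT 3 (0.0533 to 0.0763), and Pgk1 also without WT 2 (0.0554) or WT 1 (0.0603). Without mouse Fmr1CRE 2 only 4 of the 14 were called higher in hindbrain, without both replicate 3 mice or without the mice Fmr1CRE 1 and 2 there were 5, and under total counts 9, while 2 were higher in forebrain in each case. The 5 genes at 10 CPM or more with the narrowest interval around no change were Psip1, Prelid1, Atp5d, Ap2m1 and Adam22, with log2 fold changes of -0.01 to 0.01 and 95% intervals that ran from -0.16 to 0.15 for Psip1 and from -0.16 to 0.17 for Adam22. Psip1 measured 162 to 186 CPM in forebrain and 168 to 186 CPM in hindbrain. These are relative to the median gene, which the scaling sets.

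Fmr1 itself, the gene whose regulatory element was changed in the Fmr1CRE mice, measured 68.9 to 83.2 CPM in forebrain (median 76.9) and 51.3 to 69.9 CPM in hindbrain (median 64.2). The groups overlapped, because WT forebrain 3 (68.9 CPM) was below WT hindbrain 3 (69.9 CPM), and forebrain was higher in 5 of 6 mice by their labels, and in 6 of 6 with the replicate 3 forebrain libraries exchanged. The log2 fold change was 0.32 (SE 0.10, adjusted p = 0.0320), and an exact two-sided paired permutation test over the 6 mice gave p = 0.0625, and p = 0.03125 with those libraries exchanged, which is the smallest possible. The call did not hold under total counts (log2 fold change 0.19, adjusted p = 0.14), without WT 1 (0.27, adjusted p = 0.0939), without WT 2 (0.26, adjusted p = 0.0771), without Fmr1CRE 2 (0.34, adjusted p = 0.0541) or without the mice Fmr1CRE 1 and 2 (0.36, adjusted p = 0.0682), while the direction was the same in each. Its relatives Fxr1 and Fxr2 leaned the other way, at log2 fold changes of -0.56 (SE 0.08, adjusted p = 0.000423) and -0.19 (SE 0.08, adjusted p = 0.0726). Among the other genes named by the study, Six3 was higher in forebrain, Pax6 and Pola1 were higher in hindbrain (log2 fold changes -1.77 and -0.78, adjusted p = 3.70e-05 and 0.00269), and Aff2, Tenm1, Hdx and Rfx2 were not called. Rfx2 was called higher in forebrain without mouse WT 2 (adjusted p = 0.0217), without the block (0.0233), in DESeq2 (0.0394), over all 18 libraries (0.0171) and with at least 10 counts in every library (0.046), but not in the other alternatives. Hdx was called higher in hindbrain without the mice Fmr1CRE 1 and 2 (adjusted p = 0.0315).

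**Figure D4:**
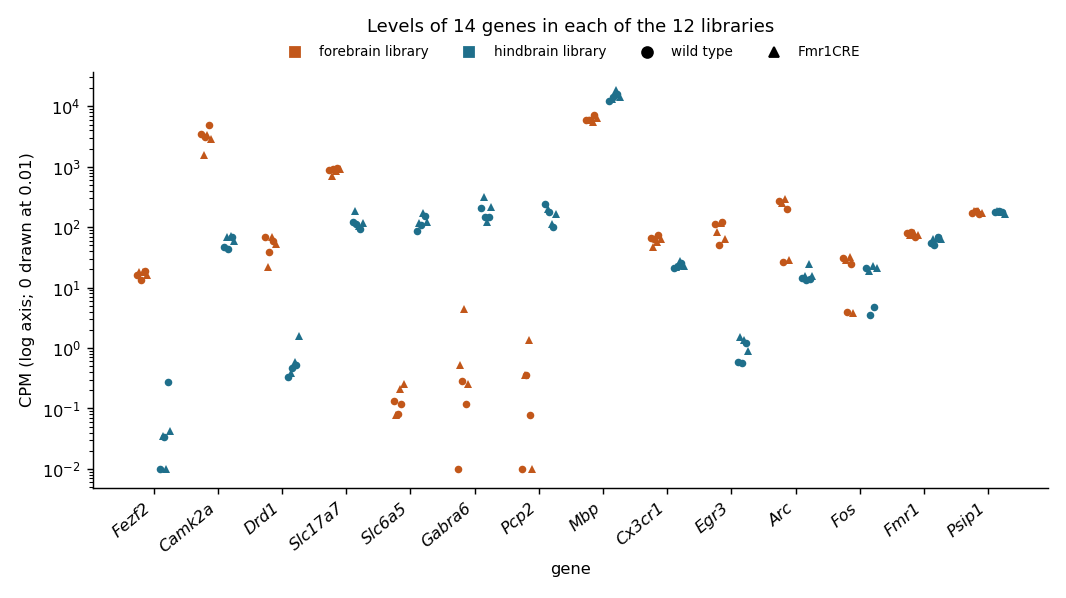
Level of 14 genes in each of the 12 libraries (CPM, log axis, with 0 drawn at 0.01), orange for forebrain and blue for hindbrain, circles for wild type and triangles for Fmr1CRE. Fezf2 to Drd1 and Egr3 lie apart by more than 10-fold in favour of forebrain, Slc6a5, Gabra6 and Pcp2 in favour of hindbrain, Fos falls into high and low libraries in both regions, and Psip1 is level.

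The region effect was next fitted within each genotype, in mice that share no library by their labels. If the replicate 3 forebrain libraries were exchanged, each group holds a forebrain library of the other genotype. In wild-type mice alone 6846 of 19123 genes were called (35.8%), and in Fmr1CRE mice alone 4234 of 19042 (22.2%). With those libraries exchanged 7645 and 4954 were called, and without both replicate 3 mice 7303 and 4344. The median standard error of the log2 fold change was 0.18 in wild-type and 0.20 in Fmr1CRE mice. Among 18683 genes tested in both, 3478 were called in both. That is 51.6% of the wild-type calls and 82.9% of the Fmr1CRE calls among those genes. Of the 3478, 3475 had the same direction. Of 6742 wild-type calls tested in both, 6498 (96.4%) had the same sign in Fmr1CRE mice, against 78.5% of all 18683 genes. Across genes, which are not independent replicates, the log2 fold changes of the genotypes correlated at r = 0.865 (rho = 0.772), and at r = 0.734 when replicate 3 was left out. That correlation was not computed with the replicate 3 forebrain libraries exchanged. The counts within a genotype rest on 3 mice and moved with single mice: leaving out WT 1 left 3417 calls and leaving out WT 2 left 4314 in wild type, and leaving out Fmr1CRE 2 left 1296 and leaving out Fmr1CRE 1 left 2415 in Fmr1CRE mice. No gene had a region effect that differed between genotypes in edgeR's test of the interaction (0 of 18876, 0%, smallest adjusted p = 0.6254), where 1358 genes (7.19%) had an unadjusted p under 0.05 and DESeq2 called 51. All 23 forebrain transcription factors were called in each genotype alone. For striatal genes the counts were 20 of 20 in wild type and 19 of 20 in Fmr1CRE mice, for granule neuron genes 14 and 13 of 18 in the hindbrain direction, for oligodendrocyte genes 17 and 17 of 23, and for immediate early genes 13 and 9 of 17 in the forebrain direction. Fmr1 was not called in either genotype alone.

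The midbrain libraries were used to place each difference along the axis of the brain. Of the 1864 genes at least 2-fold higher in forebrain, 1558 had a mean midbrain level between the other regions, 282 had a midbrain level above both, and in 1565 (84.0%) the midbrain was nearer to forebrain than to hindbrain on the log2 scale. Of the 1374 genes at least 2-fold higher in hindbrain, 1065 were intermediate and 265 had a midbrain level below both, and in 954 (69.4%) midbrain was nearer to forebrain. In both directions midbrain was nearer to forebrain in most genes. The 10 forebrain markers, which include the telencephalic gene Tbr1, were at 4.72 to 5.53 log2 CPM in the midbrain libraries and the 12 hindbrain markers at 1.85 to 2.80. The cerebellar genes Gabra6 and Pcp2 measured 33.2 to 93.5 CPM and 25.3 to 90.5 CPM in midbrain. The part of forebrain or hindbrain tissue in the midbrain samples was not tested.

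The kinds of gene called also differed between the directions. Protein-coding genes were called higher in forebrain in 26.1% of 15378 cases and higher in hindbrain in 23.8%, whereas processed pseudogenes were called higher in forebrain in 4.35% of 552 cases and higher in hindbrain in 16.5%. Reads of a processed pseudogene can be shared with its parent gene, so its level is uncertain. None of the 21 mitochondrial genes tested was called. Protein-coding genes were then ranked by the length of genome they span and cut into 5 groups of equal size with median spans of 4.69, 12.6, 24.9, 49.3 and 139 kb. Calls in the forebrain direction made up 18.1%, 21.3%, 21.9%, 27.4% and 41.9% of these groups, and calls in the hindbrain direction 29.3%, 25.9%, 25.5%, 20.8% and 17.7%. Among all calls, long genes were thus more often higher in forebrain and short genes more often higher in hindbrain. At 2-fold or more this held for the longest genes but not for the short ones: the group of the shortest genes held 8.10% higher in forebrain and 8.94% higher in hindbrain, the next group 7.71% and 5.46%, and the group of the longest genes held 18.0% higher in forebrain and 6.05% higher in hindbrain. Level ran in parallel, since in the 1 of 5 level groups with the highest levels 40.2% were called higher in forebrain and 25.3% higher in hindbrain, and the share of the span in that was not tested.

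**Figure D5:**
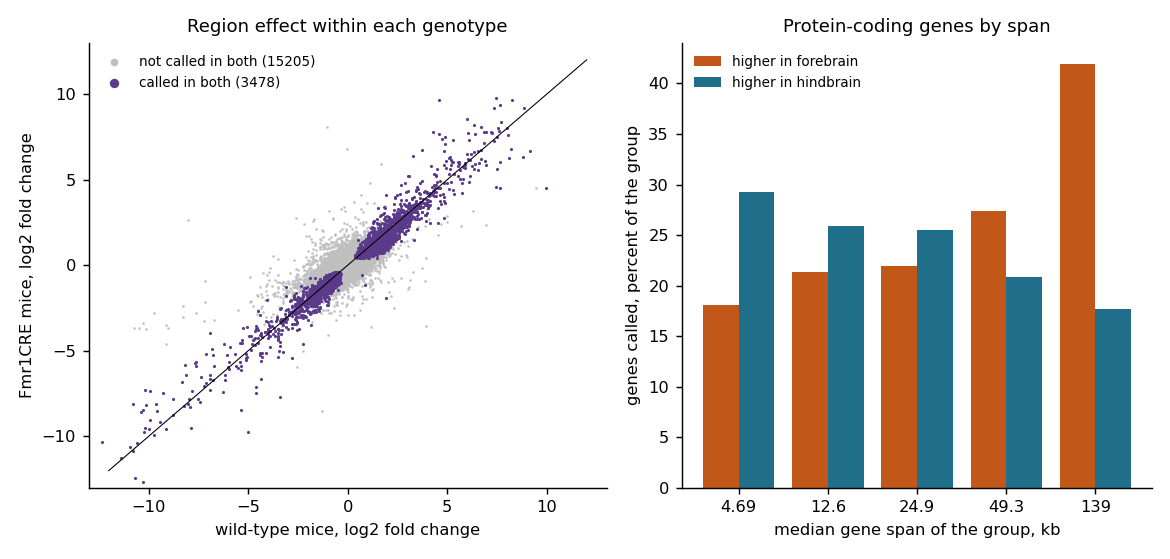
Left, log2 fold change, forebrain over hindbrain, in wild-type mice (horizontal) and in Fmr1CRE mice (vertical) for 18683 genes, with the 3478 called in both genotypes in purple along the line of equality. Right, percent of protein-coding genes called higher in forebrain (orange) or in hindbrain (blue) in each of the 5 groups of gene span, which runs from 18.1% to 41.9% in forebrain and from 29.3% to 17.7% in hindbrain.

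Promoters from the RefSeq table could be matched for 12896 of the 18876 genes tested (68.3%). Over all of them the median number of CpG in the 300 bases was 19 (quartiles 10 to 28). It was 17 (7 to 29) in 1276 promoters of genes at least 2-fold higher in forebrain and 10 (4 to 20) in 857 promoters of genes at least 2-fold higher in hindbrain. The promoters of Pcp2 and Gabra6 printed above, with 1 and 2 CpG, lie below the lower quartile of the hindbrain genes, and that of Hoxa5, with 29, lies above the upper quartile. Promoters low in CpG are usual in genes with low levels, so the genes were also grouped by mean level. In the highest of 5 level groups the median was 25 CpG for genes higher in forebrain (n = 314), 12.5 for genes higher in hindbrain (n = 72) and 24 for all (n = 2579), and in the lowest group 7, 6 and 8. The lower CpG content of hindbrain genes was thus seen among well-expressed genes and was small among the lowest. Motifs were searched on both strands. The TATA box sequence TATAAA was found in 7.99% of all promoters, 9.40% of forebrain promoters and 13% of hindbrain promoters, the homeodomain core TAATTA in 2.96%, 3.68% and 5.72%, and the E-box CAGATG in 12.6%, 14.3% and 18.2%. The cyclic AMP response element TGACGTCA was found in 2.99%, 2.04% and 1.40%, and the CArG box in 1.30%, 1.72% and 1.87%. The median content of G and C bases was 60.3% in all promoters, 61.3% in forebrain promoters and 56.0% in hindbrain promoters. The part of base composition in the motif shares was not tested. The Tbr1 promoter printed above holds TAATTA and the Pcp2 promoter CAGATG. Among 13 immediate early genes with a promoter entry the median was 26 CpG, and TGACGTCA was found in those of Btg2 and Dusp1, of which Btg2 was called higher in forebrain and Dusp1 was not called (adjusted p = 0.458) but was called higher in forebrain with the replicate 3 forebrain libraries exchanged (log2 fold change 0.31, adjusted p = 0.0295). Letters in a window are a description and not a bound site.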

How the data were processed

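Gene expression was measured by sequencing of polyadenylated RNA in 18 libraries, of which the 6 forebrain and 6 hindbrain libraries were compared and the 6 midbrain libraries served as a reference. Per the submitters' processing notes and the study's methods, the authors quantified transcripts with Salmon 0.14.0 (genome build mm10) in the bcbio_nextgen pipeline and sequenced the libraries in 2 pools of 9, and which library was in which pool is not given in the sources used here, so pool and region cannot be told apart. The deposited gene table holds counts, whole numbers that Salmon's estimates give once summed per gene. Estimated reads of close copies and of overlapping genes can be split between them.

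Counts of 53468 genes were given symbols, types and positions from GENCODE M21 (GRCm38), which lacked 37 of them (0.0143% of the counts). Genes were filtered with filterByExpr by region, scaled by TMM and tested with edgeR 4.0.16 (R 4.3.3, limma 3.58.1) by the quasi-likelihood test with the mouse as block. The p-values were adjusted by Benjamini-Hochberg over all genes tested, with 0.05 as the threshold. With the block they rest on the spread of the difference between regions among these 6 mice of 1 litter. The mouse number on each label pairs the regions. The correlation of same-mouse deviations over all genes ran from -0.185 to 0.191, with the replicate 3 mice at -0.0479 and -0.185. The same fit was made within each genotype and for the interaction of region and genotype, and the script was tested on simulated data. DESeq2 1.42.0, other scalings and filters, the fit with no block and leaving out each mouse were alternatives. Leaving out the mice of the 2 libraries that stood apart was added after seeing the data. CPM values are TMM-scaled over the 18 libraries. Depth limits the low genes, for which a floor of 3 reads over the 6 libraries of a region was used. Counting intervals are exact 95% intervals and cover counting error only.

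The 41 gene lists and 23 pairs were chosen with earlier results of these data known. Named genes were the 10 largest differences in each direction among genes without overlap and with at least 10 CPM in the higher region, up to 3 members of each list in each direction, the housekeeping and Fmr1 lists, the pairs, and the 5 genes with the narrowest interval around no change. Genes named as not called, and En2, Gad1, Snap25, Mbp, Arc, Fos, Btg2 and Dusp1, were chosen after their values were seen. Some genes chosen by this rule are not reported here. Transcript tables and a transformed copy of the counts were not used here.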

Additional observations from a re-analysis of the deposited data

Results flagged for a closer look

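In each region the 6 levels of every gene named in the report were examined for a highest or lowest library that stood apart, that is, one whose gap to the nearest other library, as a share of the whole range in log2 CPM, passed Dixon's 95% critical value for 6 values. This was so in 36 of 333 groups of 6 (10.8%), where chance gives about 1 in 20. Of the 36, 14 were in Fmr1CRE forebrain 1, 4 in Fmr1CRE hindbrain 2 and 4 in WT hindbrain 3. The cause was not tested.

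Fmr1CRE forebrain 1 was the lowest forebrain library for genes of striatal neurons, GABA neurons and synaptic calcium signalling. Gad1 was at 139.8 CPM where the other 5 forebrain libraries held 247.9 to 264.4 (gap of 0.899 of the range), Gpr6 at 6.91 against 12.1 to 16.8 (0.63), and Isl1 at 2.26 against 6.36 to 8.89 (0.754). Among receptor and signalling genes Grm5 was at 117.5 CPM against 177.0 to 191.7 (0.837), Plcb1 at 145.2 against 194.5 to 211.6 (0.776) and Chrm1 at 91.1 against 116.4 to 129.9 (0.692). The calcium pumps Atp2a2 and Atp2b2 were at 482.9 against 679.7 to 812.5 CPM (0.657) and 400.4 against 535.3 to 616.9 CPM (0.672). Hpcal4 (0.688), Ankrd63 (0.676) and Slc17a7 (0.634) were also lowest in that library. Nrgn (1235 against 991.0 to 1041 CPM, 0.775), Hapln2 (26.3 against 15.4 to 18.3 CPM, 0.681) and Slc6a2 (0.357 against 0.0780 to 0.127 CPM, 0.733) were highest in it.

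Fmr1CRE forebrain 2 held the most Cnpy1 (2.64 against 0.127 to 0.238 CPM, 0.833) and Fat2 (6.18 against 0.264 to 0.675 CPM, 0.729), both genes of the hindbrain. Fmr1CRE hindbrain 2 held the most of the noradrenergic genes Dbh (15.1 against 2.20 to 3.68 CPM, 0.736) and Slc6a2 (17.0 against 0.763 to 2.32 CPM, 0.652), and of Arc (24.2 against 13.4 to 15.8 CPM, 0.722) and Tcf7l2 (7.42 against 3.69 to 4.74 CPM, 0.642). WT hindbrain 3 held the most of the forebrain genes Fezf2 (0.278 against 0 to 0.0423 CPM, 0.714), Ankrd63 (0.515 against 0.112 to 0.180 CPM, 0.731) and Kcnv1 (5.11 against 0.970 to 1.66 CPM, 0.685), and also of Hoxb3 (21.6 against 15.7 to 17.3 CPM, 0.701). Fmr1CRE hindbrain 3 held the most of the forebrain genes Dlx6 (0.381 against 0.0332 to 0.0793 CPM, 0.755) and Drd1 (1.57 against 0.336 to 0.576 CPM, 0.668) and the least Gbx2 (1.27 against 1.85 to 2.29 CPM, 0.64).

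Fmr1CRE hindbrain 1 held the most Lhx2 (2.53 against 0.508 to 0.872 CPM, 0.676) and the least Maob (19.0 against 22.1 to 23.8 CPM, 0.662). WT hindbrain 1 held the least Hoxb8 (7.16 against 24.3 to 37.6 CPM, 0.736). WT hindbrain 2 held the most Cd163 (1.69 against 1.06 to 1.16 CPM, 0.814) and the least Homer1 (18.7 against 28.5 to 36.0 CPM, 0.643), and WT forebrain 2 the most Actb (838.1 against 669.5 to 721.0 CPM, 0.67). For Hoxa5, Hoxb5 and Hoxb8 the 1 forebrain read fell in WT forebrain 3, Fmr1CRE forebrain 2 and WT forebrain 1, and the other 5 libraries were at 0, so that the gap was the whole range (1.0).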

How the results depend on the processing

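No called difference changed direction under any alternative among the 166 genes followed, and 128 of 138 called genes were called in every alternative that tested them, of which 93 were tested in every one. A minimum of 10 counts in every library left 128 of the 166 genes to test. The 10 that lost the call in at least 1 were Gabrd, Gria1, Hprt, Maob, Pdgfra, Pgk1, Pmch, Ppia, Ryr1 and Tbp, while 10 genes not called at first were called in at least 1 alternative. Without the replicate block 9565 genes were called in place of 8811, 8009 in place of 6846 in wild-type mice, 4968 in place of 4234 in Fmr1CRE mice, and Fmr1 kept a log2 fold change of 0.31 (adjusted p = 0.00656). Without the block Grin2c, Rfx2 and Fxr2 were also called (adjusted p = 0.0193, 0.0233 and 0.0366). With the replicate block and the replicate 3 forebrain libraries exchanged 9086, 7645 and 4954 were called. Other scalings, filters and tools, and leaving out mice, left 6288 to 9975 calls, the lowest without both replicate 3 mice. Leaving out each mouse in turn gave 7438 to 8518 calls in all, 3417 to 7303 in wild-type mice, 1296 to 4344 in Fmr1CRE mice, and a log2 fold change of 0.2552 to 0.4033 for Fmr1, which was 0.4084 without both replicate 3 mice (adjusted p = 0.034). A test against a 2-fold change called 1643 genes where 3238 were called with an estimate past 2-fold. DESeq2 called 51 genes for the interaction of region and genotype and edgeR 0 under the others that were run for it, which do not include leaving out the mice Fmr1CRE 1 and 2 together. Under total counts the log2 fold change of Fmr1 was 0.1903 (adjusted p = 0.14), and without the mice Fmr1CRE 1 and 2, an alternative chosen after seeing the data, it was 0.3559 (adjusted p = 0.0682). The cause of these changes was not tested. Leaving out a mouse also lowers the number of mice, and within a genotype it leaves 2.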
